A study of Mus musculus with 10 samples.

Results

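The genes described here are the 329 protein-coding genes of mouse chromosome 14 (GRCm38, GENCODE M21) whose mean over 10 RNA libraries was at least 8 CPM (counts scaled to a common library total). They were taken from 26401 genes in the count table, of which 604 are protein-coding genes of chromosome 14 and 548 of those had a count. Chromosome 14 was picked for study because its genes were known to be lower in the high heteroplasmy group, so the chromosome-wide difference between the groups is given as a description with no test. Just inside the CPM minimum lay Slc22a17 (8.11 CPM), Sdr39u1 (8.42 CPM) and Peli2 (8.50 CPM), and just outside lay Scara3 (7.87 CPM), Gata4 (7.47 CPM) and Fam124a (6.80 CPM).

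The cells were immortalized mouse embryonic fibroblasts, a connective tissue cell grown from embryos, with C57Bl/6N given in the labels. All 10 populations carried the mitochondrial DNA genotype m.5024C>T and grew in high glucose DMEM with 10% fetal bovine serum and 50 µg/ml uridine, with no other treatment. In 5 populations (high 1 to high 5) the share of mutant mitochondrial genomes was high, and in the other 5 (low 1 to low 5) it was low. Each population is 1 clone with its own number in the labels and gave 1 poly(A) library. No mutant share is stated per clone in the sources used here. The labels call the populations biological replicates, but nothing in them says which came from separate embryos or cultures, so a p-value here measures only the spread between these 10 clones.

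Library totals ran from 17318372 to 28208576 counts. Of 14 fibroblast markers 13 had a mean of at least 1 CPM, with Lum below it. The summed fibroblast markers ran from 11100 to 22198 CPM in the high libraries and from 13201 to 15567 CPM in the low ones. Epithelial markers were detected for 4 of 8 genes, led by Krt19, with Epcam, Krt5, Krt14 and Cldn4 below 1 CPM, and their sum ran from 113 to 510 CPM in high and from 454 to 672 CPM in low. Neural markers were detected for 3 of 7 genes, led by Nes, with Sox2, Sox10, Gfap and Elavl3 below 1 CPM, and their sum ran from 140 to 269 CPM in high and from 317 to 397 CPM in low. Of 7 haematopoietic markers 5 were in the count table. Of these 1 reached 1 CPM, Cd68, with Ptprc, Csf1r, Itgam and Cd79a below it. The summed haematopoietic markers ran from 11.8 to 90.2 CPM in high and from 12.6 to 26.3 CPM in low. Of 6 muscle markers 5 were in the count table. Of these 1 reached 1 CPM, Des, with Myog, Actc1, Myh3 and Ckm below it. The summed muscle markers ran from 4.03 to 24.5 CPM in high and from 2.11 to 5.13 CPM in low. The count table held 5 of 6 endothelial and 3 of 5 pluripotent markers, and these were all below 1 CPM. Low 2 and low 3 stood apart in Gm42418, a gene that overlaps ribosomal RNA sequence, which took 4.02% and 0.770% of their counts against 0.0784% to 0.157% in the other 8 libraries. The part of these differences in the results below was not tested.

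A mouse cell normally holds each autosome as a pair, and the amount of RNA from most genes follows the number of gene copies, an effect called gene dosage. Fibroblasts that have been immortalized and grown as clones are known to gain and lose whole chromosomes or parts of them, so that clones of a single line can differ in dosage. Mouse chromosomes have their centromere at one end, and chromosome 14 holds genes for the proteasome activator, the ribosome, mitochondrial proteins, matrix enzymes and many regulators. Only RNA was measured in these libraries, and gene copies were not.

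The promoters of 3 of the 329 genes are shown as examples: Rnase4, which passed the plain test between the groups, and Phf11d and Ogdhl, which differed strongly between single clones. RefSeq promoters (GRCm38.p6) were matched for 252 of the 329 genes. Each sequence holds the 250 bases before the start of the gene, read 5′ to 3′ on the strand of the gene, and capitals mark CG, the dinucleotide that can be methylated and reads the same on both strands. The Rnase4 window is chr14:51090827-51091076 on the plus strand, the upstream of 2 that the table lists for this gene, and is shared with Ang, the Phf11d window is chr14:59365491-59365740 on the minus strand, and the Ogdhl window is chr14:32321769-32322018 on the plus strand.
Rnase4: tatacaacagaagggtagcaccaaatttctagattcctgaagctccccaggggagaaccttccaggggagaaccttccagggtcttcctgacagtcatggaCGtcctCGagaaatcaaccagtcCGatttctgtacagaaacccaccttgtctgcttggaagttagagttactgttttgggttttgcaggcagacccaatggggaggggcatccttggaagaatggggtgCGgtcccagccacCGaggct
Phf11d: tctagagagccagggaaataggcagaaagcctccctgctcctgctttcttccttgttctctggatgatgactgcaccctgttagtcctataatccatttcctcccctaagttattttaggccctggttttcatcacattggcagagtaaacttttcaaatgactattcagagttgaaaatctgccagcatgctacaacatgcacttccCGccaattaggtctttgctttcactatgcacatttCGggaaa
Ogdhl: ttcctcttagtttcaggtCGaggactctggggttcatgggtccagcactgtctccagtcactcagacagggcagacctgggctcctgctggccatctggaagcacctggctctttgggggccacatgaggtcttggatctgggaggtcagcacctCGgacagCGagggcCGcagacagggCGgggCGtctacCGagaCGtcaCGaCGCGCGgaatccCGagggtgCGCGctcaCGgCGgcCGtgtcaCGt
The Rnase4 window shown holds 5 CG (2 in the downstream window, chr14:51095750-51095999), the Phf11d window 2 and the Ogdhl window 19. Over the 32851 promoter windows of this length in the RefSeq table, 92.1% held CG, with a median of 6 and quartiles of 2 and 16. The window of Phf11d was thus at the lower quartile and the window of Ogdhl above the upper one, which is a description of the letters and says nothing of methylation in these cells.

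The shift of chromosome 14 was measured for each clone. For every gene the log2 CPM of a library was set against the median of that gene over the 10 libraries, and the median of these differences over the 329 genes is the deviation of the chromosome in that library. The deviation was -0.37 in high 1, -0.20 in high 2, -0.026 in high 3, -0.26 in high 4 and -0.15 in high 5. It was 0.060 in low 1, 0.059 in low 2, 0.11 in low 3, 0.46 in low 4 and 0.29 in low 5. The groups thus did not overlap, but high 3 lay 0.085 from the nearest low library, while low 4 and high 1 lay 0.83 apart, a 1.78-fold ratio. The mean was -0.20 ± 0.13 (SD, n = 5) in high and 0.20 ± 0.18 (SD, n = 5) in low, a difference of -0.39 on the log2 scale or a level 0.761 times that of low. In bulk RNA, fewer cells with a given level and less RNA per cell cannot be told apart, so a deviation can stand for all cells of a clone or for some of them.

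**Figure D1:**
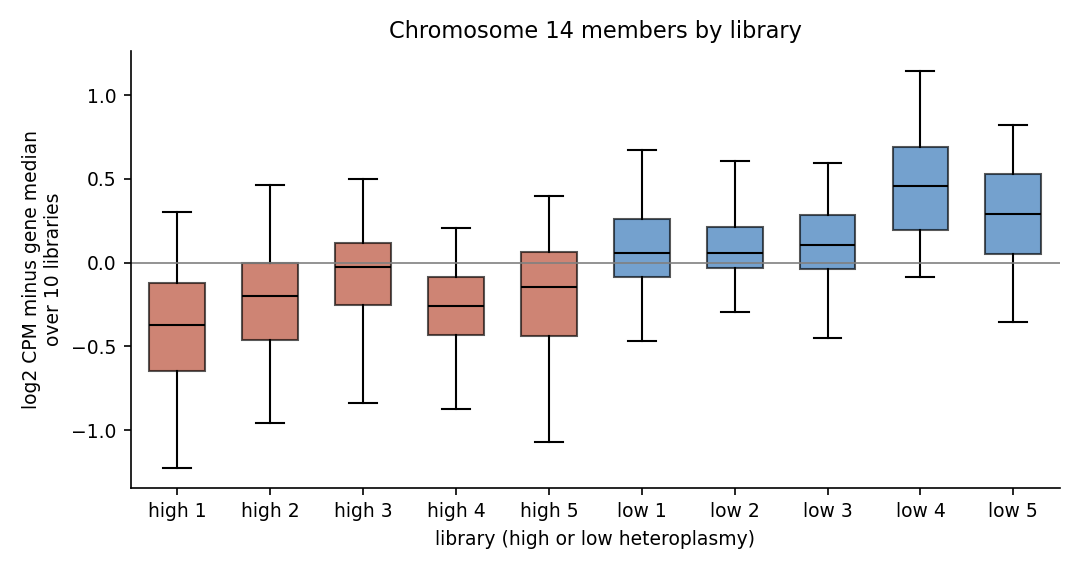
Each box shows, for 1 library, the log2 CPM of the 329 genes minus the median of each gene over the 10 libraries (line, median; box, quartiles; whiskers, 5th to 95th percentile). The medians of the 5 high libraries lie between -0.37 and -0.026 and those of the 5 low libraries between 0.059 and 0.46.

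Single genes followed these medians to different degrees in each clone. In low 4, 291 of the 329 genes were above their own median over the libraries, and in low 5, 263 were. Of the high clones, 281 genes were below their own median in high 4, 274 in high 1, 247 in high 2, 231 in high 5 and 179 in high 3. High 3 therefore stood close to an even split on this count. In low 1, low 2 and low 3 the genes below their own median numbered 121, 111 and 97. Taken as a share of all counts, the 329 genes held 2.07% to 2.58% in the high libraries (2.28% ± 0.19, SD, n = 5) and 2.74% to 3.57% in the low ones (3.05% ± 0.34, SD, n = 5), again without overlap.

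Chromosomes 6, 8 and 10 were measured in the same way, with 445, 550 and 482 genes. Their mean deviation in high minus low was 0.30, -0.57 and 0.29. On chromosome 8, low 4, the highest on chromosome 14, lay at 0.19 among low values of 0.17 to 0.42, and high 1, the lowest on chromosome 14, lay at -0.33 among high values of -0.50 to -0.15. On chromosome 6, high 1 had the highest value, 0.44, of high values that began at -0.042, and low 4 lay at -0.062. These values are descriptions, and no difference between chromosomes was tested.

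Along the chromosome the shift was spread over its whole length in most clones. With the genes cut into 3 sets by position, the first (110 genes, up to Cdkn3) differed by -0.35 between the group means, the second (110 genes, Cnih1 to Rnaseh2b) by -0.44 and the last (Ints6 to Tmtc4) by -0.43. A running median over 25 neighbouring genes was below 0 in 100% of the 305 windows in high 1, high 2 and high 4, in 96.4% in high 5 and in 77.0% in high 3. It was below 0 in 0% of the windows in low 2, low 4 and low 5, in 9.18% in low 1 and in 3.93% in low 3. High 5 was uneven: its median was -0.34 over the 84 genes between 50 and 60 Mb and -0.24 over the 43 genes between 70 and 80 Mb, but -0.040 over the 38 genes between 60 and 70 Mb.

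**Figure D2:**
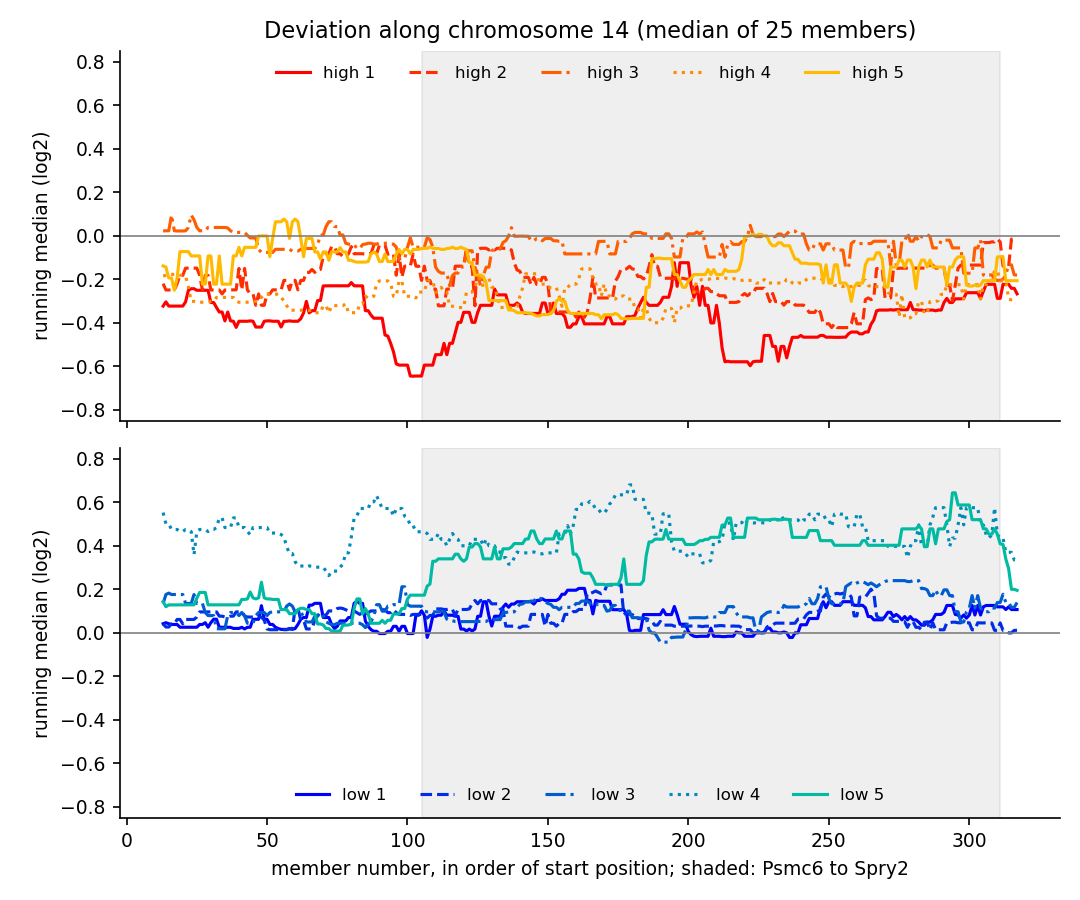
Running median over 25 neighbouring genes of the log2 CPM minus the median of each gene, 1 line per library, with the genes in order of their start on the x axis. Low 4 stays above 0.26 in every window, whereas low 5 runs from 0.0086 to 0.64. Low 5 is highest over the shaded stretch from Psmc6 to Spry2, which reaches close to the right end of the order.

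Low 5 was the clone in which position mattered most. A single step placed to fit its values best fell between Ero1l, which encodes an oxidase of the endoplasmic reticulum (45283087 to 45318771), and Psmc6, an ATPase subunit of the proteasome (45329788 to 45349705). That step removed 9.71% of the absolute deviation in low 5, against 0.588% to 1.93% for the best step in each of the other 9 libraries. A second border lay between Spry2, a feedback inhibitor of receptor tyrosine kinase signaling (105891947 to 105896819), and Tgds (118111911 to 118132755). The 207 genes from Psmc6 to Spry2 had a median deviation of 0.43 in low 5, the 104 genes before them 0.098 and the 18 genes after them 0.063. The clone thus had raised levels in the middle stretch and levels near those of low 1 to low 3 on either side.

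The borders were chosen from the values of low 5, so the contrast within low 5 is a description, and the other clones show what the same borders give without that choice. The middle stretch minus the rest was 0.35 in low 5 and ran from -0.10 to 0.058 in the other 9 libraries. In low 4 the 3 stretches had medians of 0.47, 0.49 and 0.28, so the most raised clones, low 4 and low 5, differed in extent. In low 5 the deviation had r = -0.26 with the GC content of the gene over all chromosomes, where the other 9 libraries ran from -0.050 to 0.099. Among the 329 genes the value in low 5 was -0.077, within the range of the other libraries (-0.16 to 0.14). Within the genes of low GC content the middle stretch of low 5 was 0.34 above the rest, and within those of high GC content 0.35. The part of GC content in the levels of low 5 was not tested. Leaving out the 207 genes of the stretch, the 122 remaining genes gave a difference of -0.33 between the groups.

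The groups were then compared gene by gene with edgeR's quasi-likelihood test over all 12964 genes that passed the count filter, which included all 329. Of the 329 genes, 42 were lower in high at a Benjamini-Hochberg adjusted p under 0.05, where 2.87% of all tested genes were. None was higher, where 1.99% of all tested genes were (4.86% in either direction), and at an unadjusted p under 0.05 it was 1 gene (0 by DESeq2 and 0 by limma-voom at an adjusted p under 0.05). Because chromosome 14 was picked on this contrast, nothing is read from these counts. The log2 fold change was below 0 for 295 genes and above 0 for 34, with a median of -0.44 and quartiles of -0.64 and -0.23, beside a median of 0.02 over all tested genes. In 69 genes all 5 high values lay below all 5 low values, as in 4.17% of all tested genes, and in 0 genes they lay above, as in 3.00% of them.

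The number of genes called was lower in every fit with a library left out. Without low 4 it was 10, without low 1 it was 11, without low 5 it was 13 and without high 2 or high 3 it was 15. Without low 2 it was 16, without low 3 it was 17, without high 5 it was 24, without high 4 it was 33 and without high 1 it was 37. Without both low 2 and low 3, the libraries rich in Gm42418, it was 1, while the difference of the chromosome 14 deviation was then -0.46. All these fits hold fewer libraries, and the part of this in the lost calls was not tested. Of the genes named here 3 were called whichever library was left out, in all 10 such fits: Pdlim2, Fndc3a and Loxl2.

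**Figure D3:**
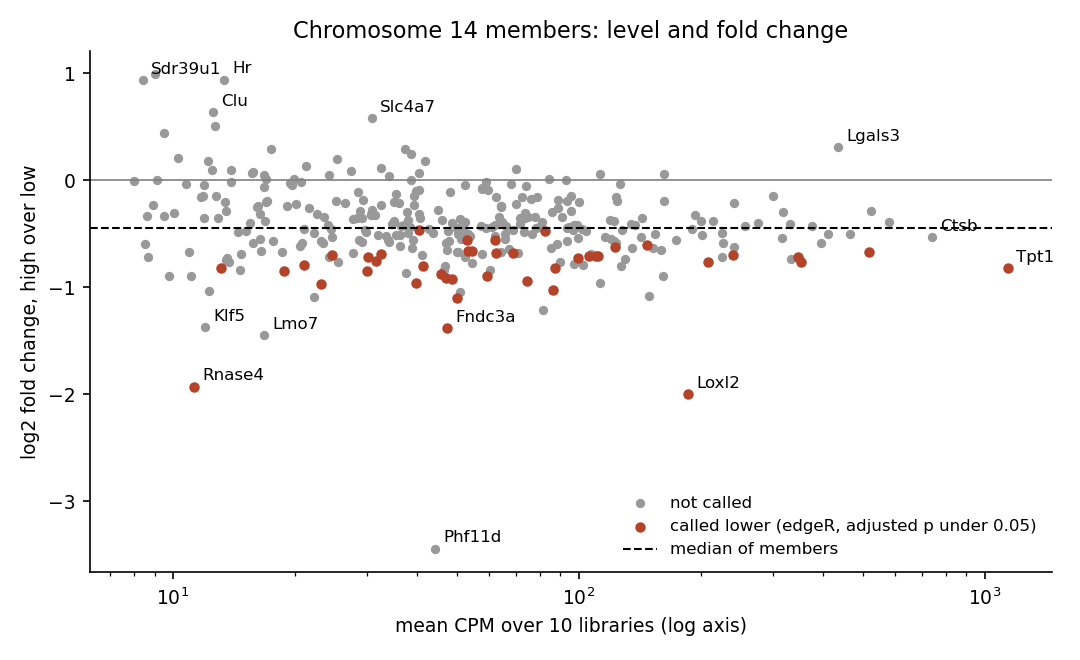
Each point is 1 of the 329 genes, with its mean CPM over the 10 libraries on a log axis and its log2 fold change, high over low. Red points are the 42 genes called lower by edgeR, grey points the rest, and the dashed line the median of -0.44, around which most genes lie.

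The fold change was nearest to 0 among genes with few counts. It had a median of -0.33 among the genes with the fewest counts (8.11 to 31.3 CPM), -0.46 among those in the middle (31.4 to 70.2 CPM) and -0.47 among those with the most (71.0 CPM and more). Of the 329 genes, 197 lay within 0.25 of the chromosome median of -0.44, and 43 lay more than 0.5 from it, 17 below and 26 above. The interquartile range of these departures was 0.414, beside 0.371 for 9193 genes of the other chromosomes around their own chromosome medians. The correlation of a gene's log2 CPM with the deviation of the chromosome over the 10 libraries had a median of 0.71, was over 0.8 for 106 genes and was negative for 17. It is a description, since each gene is itself part of the chromosome median and all points share the library scaling.

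Genes closest to the chromosome-wide pattern by this correlation were Bcl2l2 (r = 0.98), Cenpj (r = 0.98), Tox4 (r = 0.97), Chmp7 (r = 0.96) and Ppp2r2a (r = 0.96), each over 10 libraries. Bcl2l2, which encodes a survival protein of the BCL2 family, lay at 20.7, 21.8, 25.8, 22.1 and 23.8 CPM in high 1 to high 5. Its values in low 1 to low 5 were 33.7, 32.3, 31.1, 50.5 and 39.9 CPM. All high values were below all low values, and low 4 was the highest as in the chromosome median. Because Bcl2l2 was picked by its r with a deviation that separates the groups, this separation and its fold change are only a description. Its log2 fold change was -0.72 (SE 0.16, edgeR adjusted p = 0.0333), and it was called in 3 of the 10 fits without 1 library (highest adjusted p 0.0679, without high 2). With the chromosome taken into account, as described below, it differed by -0.31 (edgeR adjusted p = 0.166, DESeq2 adjusted p = 0.0490).

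Genes with many counts that lay near the chromosome median included Ctsb, a lysosomal protease, Tkt, an enzyme of the pentose phosphate pathway, and Itm2b, a membrane protein. Ctsb had 755, 543, 624, 584 and 519 CPM in high 1 to high 5. It had 783, 789, 929.7, 1034 and 843 CPM in low 1 to low 5. These 10 values did not overlap between the groups, and the log2 fold change was -0.53 (SE 0.15, edgeR adjusted p = 0.0632). The log2 fold changes of Tkt and Itm2b were -0.39 and -0.50, and neither passed the edgeR test (adjusted p = 0.225 and 0.191).

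The genes were grouped by role with lists drawn up with earlier results of these data known. Each count stands beside the 42 of the 329 genes called lower and the 2.87% of all tested genes called lower. Each median stands beside the -0.44 over the 329 genes. The genes counted in every list are among the 329, so the chromosome-wide shift enters each count. No list was tested against the rest of the chromosome. Where a called gene of a list lay outside the rule for named genes, it is named because of its call, after its values were seen: Uchl3, Oxa1l, Bnip3l, Rpl15, Ngdn, Ccar2, Plau, Pdlim2, Ktn1, Mapk8, Elf1 and Parp2. No gene of any of these lists was called higher.

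In the proteasome, ubiquitin and NEDD8 list 2 of 15 genes fell, all 15 log2 fold changes were below 0, and the median was -0.64. Uchl3, a ubiquitin hydrolase, fell by 0.92 on the log2 scale (SE 0.22, edgeR adjusted p = 0.0376), and was called in 2 of the 10 fits without 1 library (highest adjusted p 0.0840, without low 4). Psme1 and Psme2, the subunits of an interferon-inducible proteasome activator, and Nedd8, a ubiquitin-like modifier, had log2 fold changes of -0.71, -0.64 and -0.58 and did not pass (edgeR adjusted p = 0.183, 0.281 and 0.139). Psmc6, the first gene of the raised stretch of low 5, had 136, 139, 202, 181 and 171 CPM in high 1 to high 5. It had 214, 175, 208, 269 and 317 CPM in low 1 to low 5, highest in low 5.

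Of 22 genes for mitochondrial proteins 2 fell, 19 log2 fold changes were below 0, and the median was -0.40. Oxa1l, which inserts proteins into the inner mitochondrial membrane, lay at 49.8, 55.3, 54.0, 56.8 and 47.98 CPM in high 1 to high 5. It lay at 70.8, 67.1, 84.6, 109.2 and 90.6 CPM in low 1 to low 5, with no overlap. It fell by 0.68 on the log2 scale (SE 0.15, edgeR adjusted p = 0.0314), and was called in 4 of the 10 fits without 1 library (highest adjusted p 0.0674, without high 3). Bnip3l, a receptor for the removal of mitochondria by autophagy, fell by 0.71 (SE 0.17, edgeR adjusted p = 0.0383), and was called in 1 of those fits (highest adjusted p 0.0847, without low 1). Slc25a37, a mitochondrial iron importer, had 53.2, 35.8, 22.5, 65.9 and 67.4 CPM in high 1 to high 5 against 86.9, 88.6, 80.4, 188 and 125 CPM in low 1 to low 5. Its groups did not overlap but it did not pass (log2 fold change -1.22, edgeR adjusted p = 0.0588). Vdac2, a channel of the outer membrane, Ghitm, an inner membrane protein, Glud1, glutamate dehydrogenase, and Pck2, the mitochondrial phosphoenolpyruvate carboxykinase, had log2 fold changes of -0.43, -0.54, -0.21 and -0.15, and none passed (edgeR adjusted p = 0.141, 0.113, 0.640 and 0.783).

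Of 19 genes listed under the ribosome and RNA handling 5 fell (Rpl15, Rps24, Tpt1, Ngdn and Ccar2), 18 log2 fold changes were below 0, and the median was -0.51. The list also held Esd, an esterase. Tpt1, which encodes an abundant translationally controlled protein, had 1054, 588, 1023, 818 and 628 CPM in high 1 to high 5. It had 1801, 1316, 1469, 1454 and 1242 CPM in low 1 to low 5, all above the high values. It fell by 0.82 on the log2 scale (SE 0.20, edgeR adjusted p = 0.0378). Rpl15, a protein of the large ribosomal subunit, fell by 0.77 (SE 0.17, edgeR adjusted p = 0.0314) and Rps24, of the small subunit, by 0.67 (SE 0.16, edgeR adjusted p = 0.0408). Each of these 3 calls was lost in most of the 10 fits without 1 library, where Tpt1 was called in 1, Rpl15 in 3 and Rps24 in 2. The highest edgeR adjusted p, in that order, were 0.0861 (without low 1), 0.0677 (without low 4) and 0.0924 (without low 4). Near-identical copies of ribosomal protein genes exist elsewhere in the genome, and reads shared with them may have been assigned to either.

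The list of matrix proteins and their enzymes held 9 of the genes, of which 2 fell, Loxl2 and Plau, 7 log2 fold changes were below 0, and the median was -0.53. Plau encodes urokinase, a protease that activates plasminogen. It lay at 20.9, 32.0, 35.8, 21.4 and 24.6 CPM in high 1 to high 5. Low 1 to low 5 had 61.8, 63.5, 55.9, 32.3 and 48.5 CPM, and low 4 overlapped the high values. It fell by 0.96 on the log2 scale (SE 0.22, edgeR adjusted p = 0.0343), and was called in 3 of the 10 fits without 1 library (highest adjusted p 0.0843, without low 2). Mmp14, a membrane-bound collagenase, had a log2 fold change of -0.40 and did not pass (edgeR adjusted p = 0.323). Lgals3, galectin-3, a sugar-binding protein, had 319, 230.2, 925, 609 and 317 CPM in high 1 to high 5 and 341, 263, 351, 466 and 516 CPM in low 1 to low 5. Its log2 fold change was 0.31 (edgeR adjusted p = 0.680), but it was -0.068 without high 3, the highest library.

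Of 15 genes for adhesion and the cytoskeleton 3 fell, 14 log2 fold changes were below 0, and the median was -0.61. Pdlim2, a scaffold of actin fibers with PDZ and LIM domains, had 54.7, 52.4, 48.4, 80.0 and 49.2 CPM in high 1 to high 5. It had 93.9, 108, 108, 128 and 139 CPM in low 1 to low 5. The groups did not overlap, and it fell by 1.02 on the log2 scale (SE 0.17, edgeR adjusted p = 0.0135). Sorbs3, the vinculin-binding protein vinexin, fell by 0.76 (SE 0.15, edgeR adjusted p = 0.0235), and was called in 9 of the 10 fits without 1 library (adjusted p 0.0536 without low 4). Ktn1, kinectin, fell by 0.61 (SE 0.16, edgeR adjusted p = 0.0479), called in 2 of those fits (highest adjusted p 0.103, without low 4). Vcl, vinculin, had 178, 231, 284, 207 and 347 CPM in high 1 to high 5 and 314, 387, 352, 512 and 516 CPM in low 1 to low 5. It did not pass (log2 fold change -0.74, edgeR adjusted p = 0.0714). Ajuba, a LIM protein of cell junctions, and Lmo7, another actin-linked LIM protein, had log2 fold changes of -1.08 and -1.45 and did not pass either (edgeR adjusted p = 0.108 and 0.204).

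Signaling genes lay nearer to 0, with a median of -0.21 over 14 genes, 11 log2 fold changes below 0 and 1 call. The call was Mapk8, the kinase JNK1, which fell by 0.69 on the log2 scale (SE 0.14, edgeR adjusted p = 0.0262) and was called in 6 of the 10 fits without 1 library (highest adjusted p 0.0590, without low 4). Bmpr1a, a receptor for bone morphogenetic proteins, had 100.03, 163, 142, 102 and 117 CPM in high 1 to high 5. It had 119, 139.8, 131, 122 and 126 CPM in low 1 to low 5, within the range of the high values. The log2 fold changes of Bmpr1a, of its ligand Bmp4, picked after its values were seen, and of the kinase Prkcd were -0.034, 0.18 and -0.0016 (edgeR adjusted p = 0.932, 0.785 and 0.998), and those of Bmpr1a and Prkcd changed sign under other settings. Whether these genes differ from the rest of the chromosome was tested with the chromosome offset described below, which Bmpr1a, Bmp4 and Prkcd did not pass (edgeR adjusted p = 0.273, 0.255 and 0.389).

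Of 18 genes for transcription factors and chromatin 2 fell, 17 log2 fold changes were below 0, and the median was -0.45. Elf1, an ETS factor, fell by 0.94 on the log2 scale (SE 0.23, edgeR adjusted p = 0.0378), with 34.6, 54.9, 64.0, 50.1 and 50.4 CPM in high 1 to high 5 and 64.4, 98.5, 86.3, 147 and 92.2 CPM in low 1 to low 5. Parp2, which adds ADP-ribose chains at DNA breaks, fell by 0.56 (SE 0.14, edgeR adjusted p = 0.0476). Elf1 was called in 1 and Parp2 in 0 of the 10 fits without 1 library, with highest adjusted p of 0.0843 (without low 2) and 0.103 (without high 2). Klf5, a zinc finger factor of growing cells, and Irf9, a part of the interferon-activated complex ISGF3 that was picked after its values were seen, had log2 fold changes of -1.37 and -0.96 and did not pass (edgeR adjusted p = 0.0927 and 0.177). Irf9 had 69.2, 88.5, 87.6, 104 and 32.4 CPM in high 1 to high 5. It had 89.9, 191, 195, 211 and 58.5 CPM in low 1 to low 5, with low 1 and low 5 inside the high range.

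All 14 genes listed under cell cycle and division and all 14 listed under the secretory pathway had log2 fold changes below 0, with medians of -0.51 and -0.43. The first list also held the nuclear transport receptors Ipo5, Kpna3 and Xpo7, and the second held Gmfb, an actin regulator. In the first list 1 gene fell, Haus4, a subunit of the augmin complex that builds spindle microtubules, by 0.70 on the log2 scale (SE 0.15, edgeR adjusted p = 0.0262), called in 5 of the 10 fits without 1 library (highest adjusted p 0.0563, without low 1). In the second, Lrp10, a lipoprotein receptor relative, fell by 0.69 (SE 0.17, edgeR adjusted p = 0.0396) and Arf4, a small GTPase of the Golgi, by 0.72 (SE 0.16, edgeR adjusted p = 0.0337), called in 1 and 3 of those fits (highest adjusted p 0.0909 and 0.0765, each without low 4). Dlgap5, a spindle protein, did not pass (log2 fold change -0.64, edgeR adjusted p = 0.118), although its groups did not overlap.

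To find genes whose difference went beyond that of their chromosome, the edgeR fit was repeated with the median deviation of each chromosome in each library as an offset. Of the 329 genes 1 passed, Slc4a7, where 1.25% of all tested genes did (0.602% lower and 0.648% higher). DESeq2 with the same offset called 14 of them (8 lower and 6 higher), and 987 of all 12964 tested genes. Limma-voom with the offset called 2 of them, and 266 of all 12964. Slc4a7 was among the calls with each tool. The DESeq2 calls also held Loxl2, Rnase4, Fndc3a, Pdlim2, Sh3bp5, Elf1 and Bcl2l2, and the other limma-voom call was Rnase4. Slc4a7 encodes a sodium bicarbonate cotransporter and lies at 14702279 to 14799940. It had 27.6, 37.6, 46.8, 25.1 and 48.1 CPM in high 1 to high 5. The low clones, in order, had 22.5, 23.6, 29.8, 25.2 and 22.8 CPM. High 4 and high 1 lay within the low range and the other 3 high clones above it. Relative to the chromosome it was higher in high by 0.95 on the log2 scale (SE 0.18, edgeR adjusted p = 0.0373), while without the offset the log2 fold change was 0.58 (SE 0.20, edgeR adjusted p = 0.122). With the offset it passed in 2 of the 10 fits without 1 library, with adjusted p between 0.0199 and 0.0927 over those fits.

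Below the chromosome median the genes of largest departure that passed the plain test were Loxl2, Rnase4 and Fndc3a. Loxl2 (69609068 to 69695834) encodes a lysyl oxidase that crosslinks collagen. It had 114, 61.6, 60.6, 34.7 and 100.9 CPM in high 1 to high 5. Its values in low 1 to low 5 were 452, 260.1, 258, 140.4 and 376 CPM, each above every high value. Low 4, the library in which the chromosome was highest, had the lowest Loxl2 level of the low clones. The means were 74.3 ± 32.3 CPM (SD, n = 5) in high and 297 ± 119.9 CPM (SD, n = 5) in low, a fall of 2.00 on the log2 scale (SE 0.37, edgeR adjusted p = 0.0174). Relative to the chromosome the difference was -1.62 and did not pass (edgeR adjusted p = 0.0810), whereas DESeq2 called it (adjusted p = 0.00153).

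Rnase4 (51091077 to 51106151), whose promoter is printed above, encodes a secreted ribonuclease. It had 3.20, 1.81, 3.10, 11.97 and 3.26 CPM in high 1 to high 5, and 4 of the 5 values lay under 4 CPM. The 5 low clones, low 1 to low 5, had 20.2, 19.9, 15.3, 15.7 and 18.0 CPM, so that high 4 was the closest of the high clones to the low range. It fell by 1.93 on the log2 scale (SE 0.45, edgeR adjusted p = 0.0357), but passed in 1 of the 10 fits without 1 library, with adjusted p from 0.00196 (without high 4) to 0.0819 (without high 3). Ang, the angiogenin gene that shares the promoter and overlaps Rnase4 on the same strand over 10860 bases, had a mean of 1.499 CPM, and reads from the shared part cannot be told apart. Relative to the chromosome Rnase4 differed by -1.53 and missed the threshold in edgeR (adjusted p = 0.134), but passed it in DESeq2 (adjusted p = 0.0222) and limma-voom (adjusted p = 0.0455).

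Fndc3a (72537946 to 72710003) encodes a membrane protein with fibronectin type III domains. It had 36.4, 28.8, 19.6, 22.5 and 23.8 CPM in high 1 to high 5. Low 1 to low 5 had 57.9, 64.9, 61.9, 109.3 and 46.9 CPM, with low 4 the highest. It fell by 1.38 on the log2 scale (SE 0.24, edgeR adjusted p = 0.0154), and relative to the chromosome it differed by -0.94 (edgeR adjusted p = 0.0849, DESeq2 adjusted p = 0.00905). Arhgap22, which inactivates the GTPase Rac, also fell, by 1.10 (SE 0.26, edgeR adjusted p = 0.0346), and was called in 3 of the 10 fits without 1 library (highest adjusted p 0.0773, without low 4). Ndrg2, a differentiation-linked gene, did not pass (log2 fold change -1.09, edgeR adjusted p = 0.277).

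**Figure D4:**
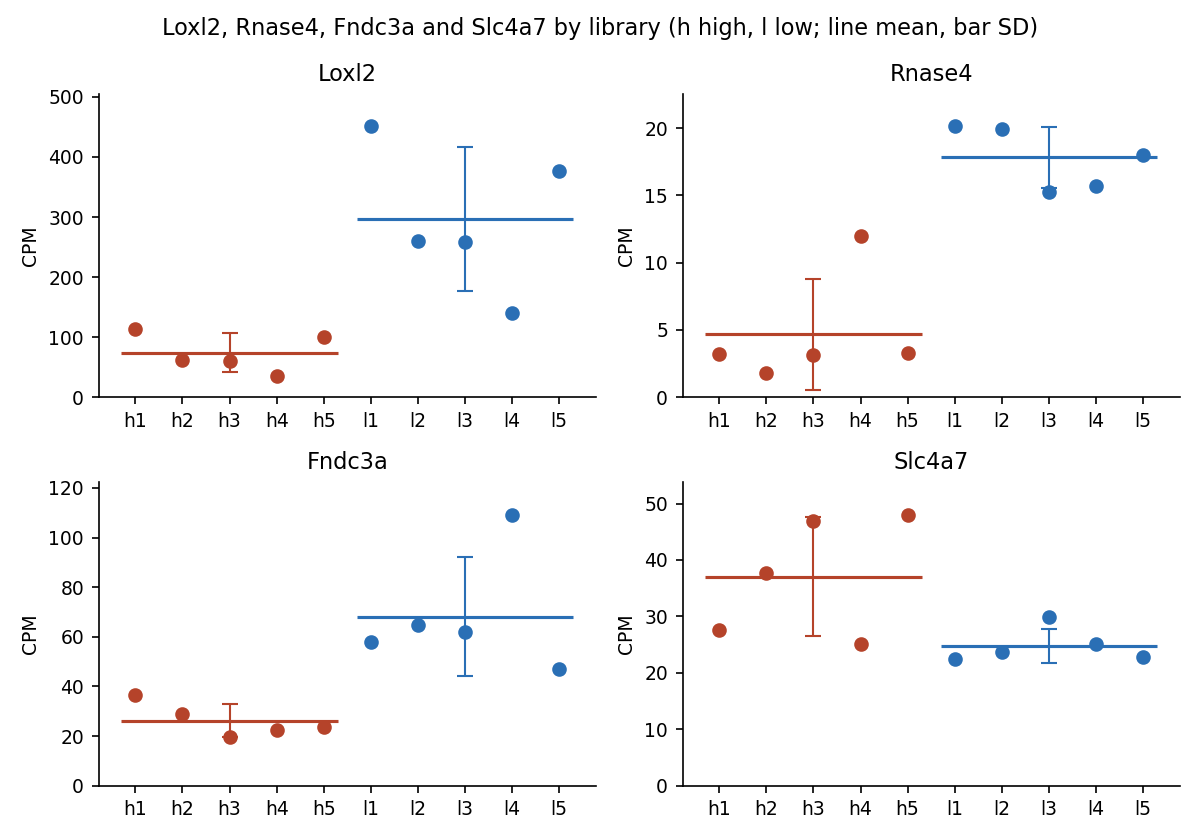
CPM of Loxl2, Rnase4, Fndc3a and Slc4a7 in each of the 10 libraries (h high, l low), with the group mean as a line and the SD as a bar, each axis from 0. The first 3 genes do not overlap between the groups, and for Slc4a7 high 1 and high 4 lie within the low range.

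The genes of largest departure above the chromosome median included several that varied strongly between clones, some of them described further down. Sh3bp5, which binds the tyrosine kinase BTK, varied little and moved against the chromosome, with r = -0.64 over the 10 libraries. It had 39.3, 42.4, 49.2, 38.0 and 36.5 CPM in high 1 to high 5. The low clones, in order, had 31.0, 44.5, 35.6, 26.8 and 29.7 CPM, with low 4 the lowest. Relative to the chromosome it differed by 0.66 (SE 0.19) and missed the threshold in edgeR (adjusted p = 0.118), whereas DESeq2 called it (adjusted p = 0.0290). It overlaps Capn7 on the opposite strand over 12107 bases. Hr, the corepressor hairless, had a log2 fold change of 0.94 (edgeR adjusted p = 0.481) that was -0.11 without high 3. The uncharacterized 3830406C13Rik, Sema3g, a secreted semaphorin, and Ebpl, a relative of a sterol isomerase, had log2 fold changes of 0.99, 0.44 and 0.29, and none passed (edgeR adjusted p = 0.421, 0.628 and 0.607).

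Differences between single clones were far larger for a few genes than the shift of the chromosome. After the deviation of the chromosome was taken off, 275 of the 329 genes stayed within 1 log2 unit of their own median in every library, 54 did not, and 9 were more than 3 log2 units away in at least 1 library. These 9 were Nid2, Ogdhl, Peli2, Slc22a17, Tgm1, Sdr39u1, Phf11d, Clu and Lmo7. None of the 9 passed the test between the groups (edgeR adjusted p from 0.154 for Phf11d to 0.996 for Slc22a17).

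Phf11d (59347407 to 59365470), which encodes a PHD finger protein, was the gene of largest fold change. It had 15.3, 2.45, 2.72, 16.8 and 0.0666 CPM in high 1 to high 5. Its values in low 1 to low 5 were 4.27, 75.6, 148, 175 and 2.29 CPM. Low 2, low 3 and low 4 were high, whereas low 1 and low 5 lay among the high clones. The log2 fold change was -3.45 (SE 1.31, edgeR adjusted p = 0.154). Its neighbour and close relative Phf11b had 6.63, 7.18 and 4.73 CPM in low 2, low 3 and low 4 and at most 1.19 CPM in the other libraries, and reads of these copies may have been split between them.

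Nid2 (19751265 to 19811787) encodes a nidogen of basement membranes. It had 35.8, 1.25, 0.530, 0.955 and 0.333 CPM in high 1 to high 5. The 5 low clones, low 1 to low 5, had 24.7, 2.44, 0, 0.460 and 44.4 CPM, where 0 counts in low 3 allow up to 0.141 CPM (3 counts; counting error only). High 1, low 1 and low 5 thus stood apart from the other 7 clones, across both groups. Nid2 overlaps Rtraf on the opposite strand over 437 bases, and Rtraf had 6.87 times its mean CPM.

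Clu (65968483 to 65981547) encodes clusterin, a secreted chaperone. It had 60.2, 12.3, 0.870, 1.11 and 1.86 CPM in high 1 to high 5. Low 1 to low 5 had 25.01, 2.01, 2.44, 16.02 and 3.43 CPM. High 1, low 1, low 4 and high 2 held the 4 highest values. Ogdhl (32322019 to 32348151), a relative of the mitochondrial oxoglutarate dehydrogenase whose promoter is printed above, had 35.5, 36.8, 1.17, 0.875 and 0.0998 CPM in high 1 to high 5. It had 15.4, 2.17, 2.30, 24.7 and 7.68 CPM in low 1 to low 5. High 1, high 2, low 1 and low 4 were the 4 highest clones for Ogdhl as for Clu. The log2 fold changes, 0.64 for Clu (edgeR adjusted p = 0.811) and 0.50 for Ogdhl (edgeR adjusted p = 0.869), changed sign with the tool.

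Sdr39u1 (55897283 to 55900293) encodes a short-chain dehydrogenase. It had 14.7, 17.2, 17.7, 1.59 and 4.19 CPM in high 1 to high 5. The low clones, in order, had 2.05, 0, 2.63, 23.9 and 0.109 CPM, where 0 counts in low 2 allow up to 0.163 CPM. Low 2 and low 5 were nearly without its RNA, and low 4 had the highest value. It overlaps Khnyn on the opposite strand over 1493 bases, and Khnyn had 3.71 times its mean CPM. No source used here states the strand setting of the counting, so for such pairs reads of the 2 genes may not have been told apart.

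Nfatc4 (55823144 to 55833943), a transcription factor controlled by calcineurin, had 38.0, 57.3, 4.12, 3.50 and 4.09 CPM in high 1 to high 5. Its values in low 1 to low 5 were 54.1, 9.67, 25.001, 39.3 and 42.9 CPM. High 3, high 4 and high 5 were below all other clones, while high 1 and high 2 lay in the low range or above it. Tgm1, a transglutaminase of skin, had 40.7, 1.16, 4.62, 2.82 and 1.33 CPM in high 1 to high 5. It had 14.4, 9.24, 4.97, 49.9 and 6.26 CPM in low 1 to low 5, highest in low 4 and high 1.

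**Figure D5:**
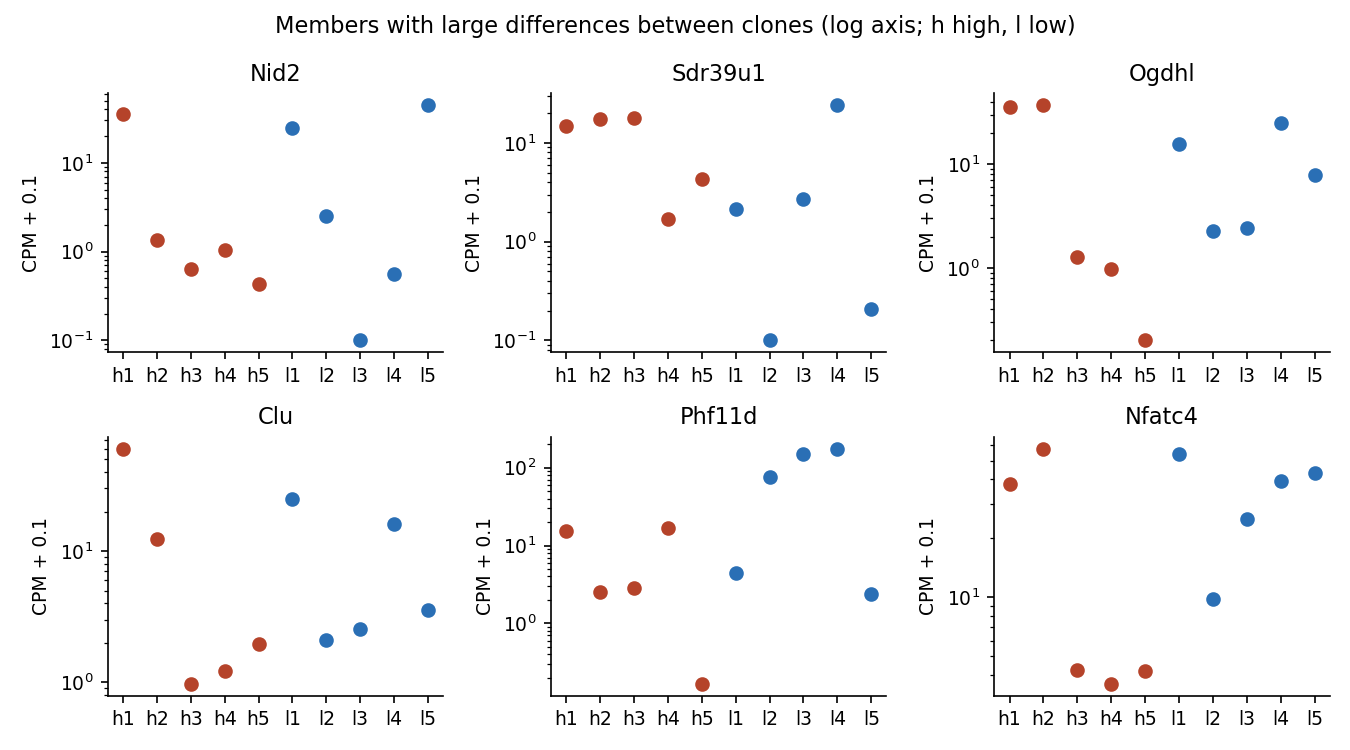
CPM + 0.1 on a log axis of Nid2, Sdr39u1, Ogdhl, Clu, Phf11d and Nfatc4 in each of the 10 libraries (h high in red, l low in blue). For Nfatc4 the 3 lowest clones are all high clones and for Phf11d the 3 highest are all low clones, while for the other 4 genes both groups hold clones above 10 CPM and clones under 5 CPM.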

How the data were processed

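Poly(A) RNA of 10 clonal fibroblast populations was sequenced, 1 library each, and the authors deposited raw read counts per Ensembl gene. Named in the submitters' processing notes are STAR 2.7.8a, DESeq2 1.36.0, R 4.2.1 and GRCm38, without saying what each did. No source used here states how reads were assigned to genes, with which strand setting or annotation. Genes were placed with GENCODE M21 on GRCm38, which left 195 identifiers without a name (at most 0.0701% of a library).

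Counts were tested with edgeR 4.0.16 in R 4.3.3 (default filter by group, TMM, robust quasi-likelihood F-test, two-sided, Benjamini-Hochberg over 12964 genes, threshold 0.05, group as the only term), and again with an offset per library and chromosome, the median deviation of its protein-coding genes at a mean of at least 8 CPM. Log2 CPM used a prior count of 2, and CPM printed per library carry the TMM factor. CPM for the minimum used raw totals. Alternatives were other scalings and filters, DESeq2 1.42.0, limma-voom (limma 3.58.1), a replicate block, each library left out, low 2 and low 3 left out, other CPM minimums and a threshold of 0.1. Leaving out the stretch from Psmc6 to Spry2 was chosen after seeing the data. The fit was tested on simulated counts. Where a library had 0 counts of a gene, 3 counts were taken as the limit that 0 allows, for counting error only.

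The genes and lists were chosen with earlier results of these data known. Genes named were, by rule, the 10 highest and 10 lowest departures from the chromosome median, the 6 with most counts near it, up to 4 per role list by counts, those called with the offset, the 2 of largest residual per library, 3 on each side of the CPM minimum and the 5 of highest r. Not every gene that the rule picks is reported here, but all enter the totals. The deposited normalized table and the sample sheet were not used.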

Additional observations from a re-analysis of the deposited data

Results flagged for a closer look

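Within the groups of 5, 150 sets of values were searched for a library that stood apart from the other 4 by Dixon's test, which chance flags in about 1 of 20, and 9 sets held one. High 1 stood below the other high clones in log2 CPM of Dlgap5 (6.10 against 6.86 to 7.17), Glud1 (6.93 against 7.78 to 8.07) and Ipo5 (7.48 against 8.15 to 8.40), and above them in Nid2 (5.17 against -1.24 to 0.42). High 2 stood above the others in Mapk8 (4.95 against 4.50 to 4.60), high 3 in Chmp7 (6.05 against 5.55 to 5.66) and high 4 in Pdlim2 (6.32 against 5.599 to 5.77). Low 4 stood above the other low clones in Arhgap22 (6.60 against 5.88 to 6.00) and in the median deviation over the first of the 3 sets of genes along chromosome 14 (0.47 against 0.041 to 0.11), where low 5 lay with the rest.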

How the results depend on the processing

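The difference of the chromosome 14 deviation, high minus low, ran from -0.46 to -0.33 over 10 alternatives and from -0.43 to -0.33 over the fits that left out 1 library, always with the same sign. The count of genes called lower was 42. It was 24 with no filter, 89 with DESeq2, 85 at a threshold of 0.1, 1 without low 2 and low 3, 11 among the 122 genes outside the stretch from Psmc6 to Spry2, and 10 to 37 with each library left out. Over all 12964 tested genes DESeq2 called 1475 in either direction, where edgeR called 630. The count with the chromosome offset was 1. It was 14 with DESeq2, 2 with limma-voom, 0 without low 2 and low 3, and 0 to 3 with each library left out. Over all 12964 tested genes the fits with the offset called 162 with edgeR, 987 with DESeq2 and 266 with limma-voom. Some of these settings hold fewer samples or genes, and the cause of the changes was not tested.

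Replicate numbers were not taken to pair the clones, since same-numbered clones had correlations of 0.48, 0.011, 0.0070, 0.14 and 0.24 between their deviations from the group means, not all over 0.1. For each high clone the largest correlation with a low clone of another number was -0.073, 0.11, 0.094, 0.24 and 0.041, so high 1 and high 5 correlated best with their own number and the other 3 did not. With the replicate block 48 genes were called lower, 31 of them shared with the 42, and 3 were called with the chromosome offset (Slc4a7, Dhrs1 and Loxl2). Over all 12964 tested genes the block called 577 in either direction, and 172 with the offset. Of the genes named, the block lost the calls of Bcl2l2, Haus4, Ktn1, Mapk8, Parp2 and Uchl3 and gained Ajuba, Irf9, Klf5, Ndrg2, Ppp2r2a, Slc25a37 and Vcl.

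Log2 fold changes of genes near 0 or uneven between clones changed sign. With the block they were -0.39 for Clu, -1.16 for Ogdhl and -0.049 for Tsc22d1, and with limma-voom -0.59, -1.50 and -0.052. Without low 2 and low 3 they were 0.044 for Bmpr1a, 0.036 for Pck2, 0.13 for Prkcd and -0.10 for Ogdhl. For Prkcd the value was 0.0062 with RLE scaling and with DESeq2, 0.019 with upper-quartile scaling and 0.017 with no filter, and for Slc22a17 it was 0.014 with upper-quartile scaling. With each library left out the log2 fold change ran from -0.15 to 0.038 for Bmpr1a, -1.28 to 1.34 for Clu, -0.11 to 1.31 for Hr, -0.068 to 0.49 for Lgals3, -4.23 to 0.17 for Nid2, -0.17 to 1.11 for Ogdhl, -0.25 to 0.058 for Pck2, -0.22 to 0.12 for Prkcd, -0.56 to 0.35 for Slc22a17, -2.77 to 0.21 for Tgm1 and -0.23 to 0.25 for Tsc22d1.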
